A study of Mus musculus with 13 samples.

Results

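The miR-10a and miR-10b microRNAs (miRNAs) lie inside the Hox gene clusters, and 3 of their mature forms (mmu-miR-10a-5p, mmu-miR-10b-5p and mmu-miR-10b-3p, written below without the mouse prefix) were followed through 13 mouse neuroblastomas. They were chosen by name among the 1079 mouse miRNAs of the array, with earlier results of these data known. The tumours were spontaneous abdominal primaries of TH-MYCN mice, in which a tyrosine hydroxylase promoter drives MYCN in the sympathetic lineage. In the wild-type group (n = 6) caspase-8 was intact and the bone marrow held no metastasis. In the deficient group (n = 7) caspase-8 was deficient and there was bone marrow metastasis, so that genotype and spread changed together. The labels call the tumours biological replicates of each group, and all animals shared the TH-MYCN background named in the study's title. The sources used here give neither how caspase-8 was removed nor the animals' ages. The question is whether both Hox miRNAs differ between these groups, how far they vary within each, and whether they move together.

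A miRNA is a short RNA that guides the silencing complex to messenger RNAs, mainly through its seed, bases 2 to 8 from the 5′ end. Its hairpin precursor can give a 5p and a 3p arm, of which 1 usually dominates. Hox genes encode the transcription factors that set position along the body axis, and the miRNAs within their clusters tend to be transcribed with the neighbouring Hox genes. miR-10b has been studied for its part in invasion and metastasis of breast cancer, and both miR-10a and miR-10b as miRNAs that rise when neuroblastoma cells differentiate under retinoic acid.

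The mature sequences of the members and of the silent miR-10a-3p are shown because the 5p forms share 1 seed and are nearly the same RNA, which bears on what an array can tell apart. Capitals mark the seed, and sequences and positions are from RefSeq (GRCm38.p6).
miR-10a-5p: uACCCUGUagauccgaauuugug
miR-10b-5p: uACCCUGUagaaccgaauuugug
miR-10b-3p: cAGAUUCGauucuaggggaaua
miR-10a-3p: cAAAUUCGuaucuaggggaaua
Counted from 1 at the 5′ end, miR-10a-5p and miR-10b-5p differed by the single substitution U12A and shared 22 of 23 bases. The 3p arms differed by A3G, U9A and A10U, of which the first lies in the seed. The Mir10b hairpin lies at chr2:74726070-74726137 on the plus strand, within the spans of Hoxd3 and Hoxd4. The Mir10a hairpin lies at chr11:96317165-96317274 on the plus strand, within the span of Hoxb3 and between Hoxb5 and Hoxb4.

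Each tumour was read on 1 Agilent array of 1 colour, which detected 338 to 469 mouse miRNAs, and the 419 miRNAs that at least 6 arrays detected were tested. A level is the log2 of the summed probe signal of a miRNA, after spots marked by the scanner software as outliers were left out and arrays were scaled to each other. Values under a floor of 4.10 on this scale were set to it. Each level serves only to compare tumours for 1 miRNA, because probes differ in brightness. Of the tumour identity markers, all 10 neuronal and all 5 neuroendocrine miRNAs on the list were tested, and 8 and 4 of them were detected on every array. Among them were miR-218-5p, found in motor neurons (10.86 to 12.20), miR-128-3p (8.57 to 9.74), miR-7a-5p (10.49 to 12.37) and miR-375-3p (10.01 to 11.92). The arrays lay on 2 slides, with 2 wild-type and 5 deficient tumours on slide 1, and 4 wild-type and 2 deficient tumours on slide 2. The unscaled 75th percentile of the arrays spanned 2.27-fold.

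miR-10b-5p varied far more between tumours of 1 group than between the groups. In the wild-type tumours its level was 6.72, 10.36, 5.56, 9.64, 10.40 and 6.95 in replicates 1 to 6. In the deficient tumours it was 10.55, 4.96, 9.14, 9.43, 10.31, 10.28 and 9.57 in replicates 1 to 7. The levels fell on either side of an empty stretch: 4 tumours (wild-type replicates 1, 3 and 6 and deficient replicate 2) lay between 4.96 and 6.95, and the other 9 between 9.14 and 10.55. Both groups lay on both sides of it, and their ranges overlapped almost entirely. On the linear scale the wild-type tumours spanned 28.8-fold and the deficient tumours 48.4-fold, or 2.66-fold without deficient replicate 2. The low ends lay near background, with scaled signals of 47.1 in wild-type replicate 3 and 31.0 in deficient replicate 2 against a floor of 17.2. These spans therefore depend on the background step. With normexp background correction the SD was 1.29 in wild-type and 0.883 in deficient tumours, against 2.11 and 1.93 here. In a tumour piece, fewer cells that make a miRNA and less of it per cell cannot be told apart.

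**Figure D1:**
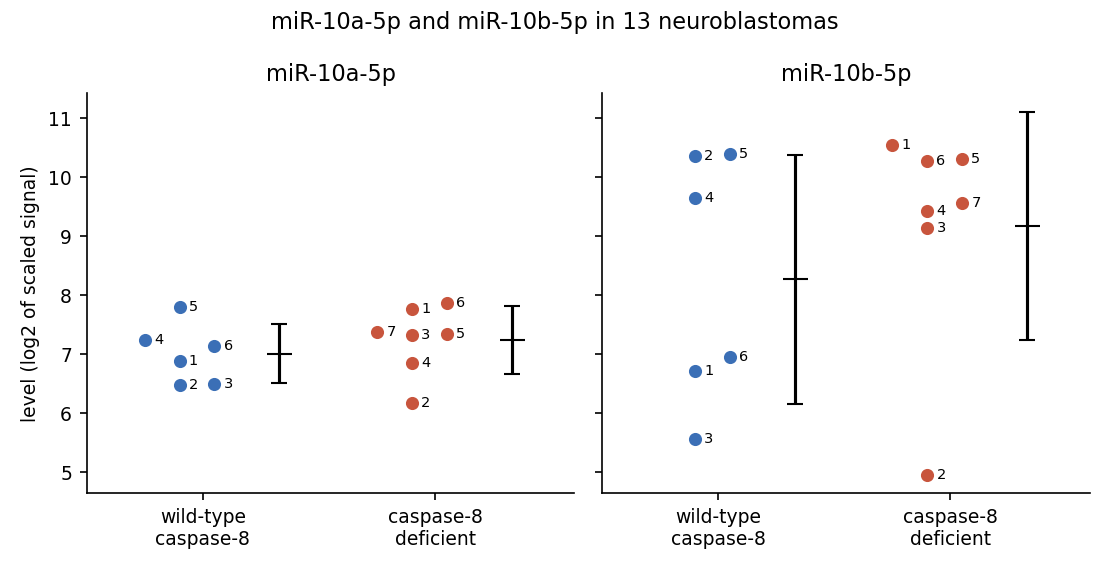
Levels of miR-10a-5p (left) and miR-10b-5p (right) on the log2 scale in each tumour, with the replicate number beside each point and the mean ± SD of each group as a bar. miR-10b-5p left a gap between 6.95 and 9.14 that no tumour filled, while miR-10a-5p stayed between 6.17 and 7.87.

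The gap of 2.19 in miR-10b-5p was wide for these arrays. With at least 3 tumours required on each side, only 3 of the 419 tested miRNAs had a wider one, and the median over the tested miRNAs was 0.294. The SD of miR-10b-5p within groups was 2.02, the fifth highest of the 419 tested miRNAs, whose median was 0.538.

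miR-10a-5p stayed in a narrow band. It ran from 6.49 through a median of 7.02 to 7.80 in the wild-type tumours, and from 6.17 through a median of 7.35 to 7.87 in the deficient tumours. The groups overlapped over most of that band, and all 13 tumours together spanned 3.24-fold. Its SD within groups, 0.54, ranked 207 among the 419. Wild-type replicates 2 and 3 show how separately both loci could lie. Their miR-10a-5p levels were 6.49 and 6.51, and their miR-10b-5p levels 10.36 and 5.56. The array thus did not read these 5p forms, which differ at 1 base, as 1 signal. The probe sequences were not used here. Carry-over from 1 form to the other was not tested, including that of miR-10a-5p into the low miR-10b-5p levels.

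Neither 5p form differed detectably between the groups. The mean of miR-10a-5p was 7.01 ± 0.50 (SD, n = 6) with wild-type caspase-8 and 7.24 ± 0.58 (SD, n = 7) in the deficient group, which is 0.23 higher (SE 0.29, limma adjusted p = 0.766, 95% interval −0.40 to 0.86). The means of miR-10b-5p were 8.27 ± 2.11 (SD, n = 6) and 9.18 ± 1.93 (SD, n = 7), which is 0.91 higher (SE 1.00, limma adjusted p = 0.729, 95% interval −1.25 to 3.06). The difference rested on single tumours and was 1.61 without deficient replicate 2 and 0.363 without wild-type replicate 3. Blocked by slide it was 1.06, on slide 1 alone 0.315 and on slide 2 alone 1.85, and for miR-10a-5p these differences were 0.338, 0.525 and 0.139. The median difference over the tested miRNAs was 0.0413. None of the 419 (0%) passed an adjusted p of 0.05 by limma, 16 (3.82%) had an unadjusted p under 0.05, and neither 5p form was among those 16. The interval of miR-10b-5p ran from −1.25 to 3.06 on the log2 scale, so a severalfold increase and a smaller decrease both lie within it.

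The log2 ratio of miR-10b-5p to miR-10a-5p within an array, which does not depend on scaling, asks whether the Hoxd and Hoxb loci shifted unequally. Only its change between tumours can be read. It ran from −0.95 through a median of 1.11 to 3.87 in the wild-type tumours and from −1.22 through a median of 2.42 to 2.97 in the deficient tumours. The groups overlapped, with means of 1.26 ± 1.95 (SD, n = 6) and 1.94 ± 1.44 (SD, n = 7). The difference of 0.676 did not pass an exact two-sided permutation test over all splits into 6 and 7 (p = 0.480). Blocked by slide it was 0.719 (exact permutation p = 0.502), and its sign turned within slide 1, where it was −0.21 (exact permutation p = 1). It was 1.5 when the outlier-marked spots described next were kept (exact permutation p = 0.0932) and 1.33 in the authors' deposited series matrix (exact permutation p = 0.103).

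The lowest miR-10b-5p level of all, 4.96 in deficient replicate 2, was measured with 1 far brighter spot left out. miR-10b-5p was read by 2 probes of 20 spots each. In this tumour, 1 spot of the second probe had a signal of 25281.4 before scaling, and the scanner software marked it both as non-uniform and as a population outlier. The other 19 spots of that probe averaged 18.6, from 8.09 to 26.3, and the 20 spots of the first probe averaged 4.33. A high reading of this tumour in miR-10b-5p therefore rested on that 1 spot within a mean. The median over all 20 spots of a probe, marked or not, was 20.1 for the second probe and 4.71 for the first.

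**Figure D2:**
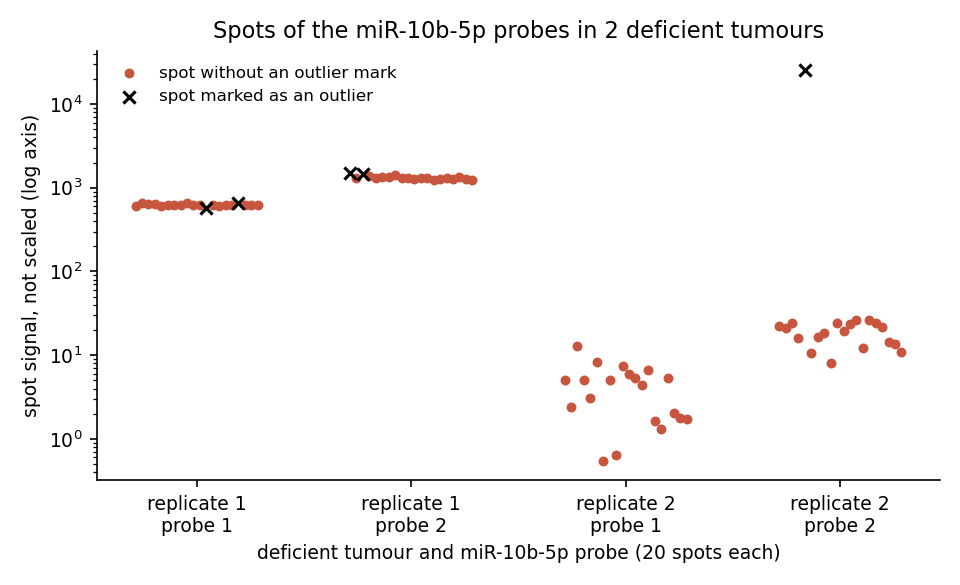
Signal of each spot before scaling, on a log axis, for both miR-10b-5p probes in deficient replicates 1 and 2, with spots marked as outliers drawn as crosses. In replicate 1 marked and unmarked spots lay together, whereas in replicate 2 the marked spot at 25281.4 stood far above the other 19, which averaged 18.6.

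With marked spots kept in the mean, the tumour's level became 10.63, the highest of the 13 in place of the lowest. The authors' deposited series matrix, for which no source used here says how marked spots were handled, had this tumour highest as well, at 9.63. In the same matrix its miR-10b-3p, the other arm of the same hairpin, was the lowest of the 13, at 2.06. miR-10a-3p, of the other locus and detected in no tumour, was lowest in this tumour too, at 2.515. The low 3p value was thus not particular to the Mir10b hairpin. The scanner software's own summary of miR-10b-5p, a linear sum over probes before scaling, was lowest of all in this tumour, at 6.83 with an error of 2.14. The ratio of the second to the first probe was 1.92 to 4.29 over the arrays without marked spots. With them it reached 295.8 in this tumour and at most 3.20 elsewhere. The correlation of both probes across arrays, a description over 13 arrays that share their tumours, was 0.998 without marked spots and 0.549 with them.

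Such a shift was rare. Marked spots were 3.21% to 4.51% of the mouse spots of an array, and keeping them moved 14 of 5447 levels (419 miRNAs in 13 tumours) by more than 1 on the log2 scale and 7 by more than 3. The shift of 5.68 for miR-10b-5p in deficient replicate 2 was the second largest, against a median absolute shift of 0.0123. No other tumour's miR-10b-5p moved by more than 0.0300, and none of the miR-10a-5p levels by more than 0.139.

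**Figure D3:**
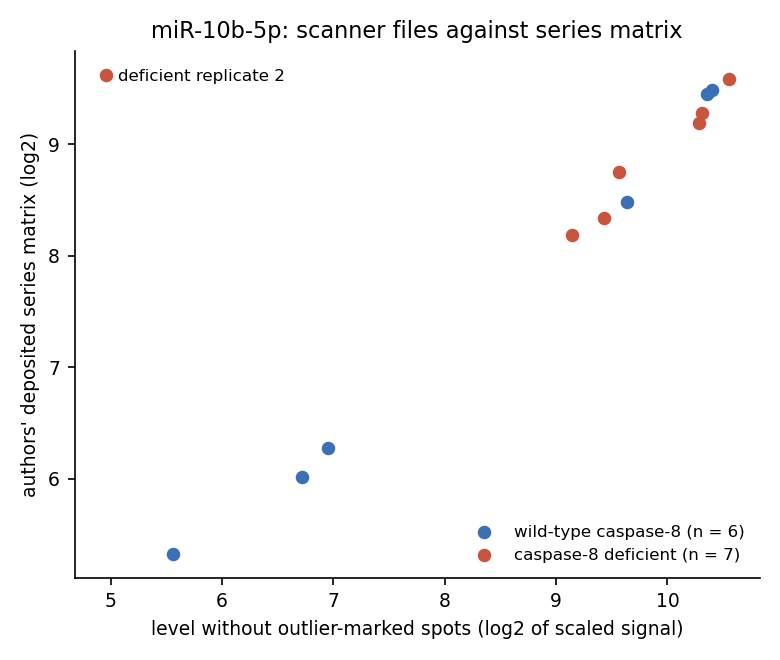
miR-10b-5p in each tumour as measured here without outlier-marked spots (horizontal, log2 of scaled signal) and in the authors' deposited series matrix (vertical, log2). Of the tumours, 12 rise together from the lower left to the upper right, and deficient replicate 2 lies alone at 4.96 and 9.63.

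The comparison of the groups moved with the level of this tumour. In the authors' deposited series matrix the deficient tumours ran from 8.19 to 9.63 and the wild-type tumours from 5.33 to 9.49, so that the low side of the gap held 3 wild-type tumours and no deficient one. The difference there was 1.49 (limma unadjusted p = 0.0424, adjusted p = 0.597), where 21 of the 419 miRNAs (5.01%) had an unadjusted p under 0.05. With marked spots kept in the scanner files it was 1.71 (limma unadjusted p = 0.0377, adjusted p = 0.610), again with 16 of 419 (3.82%) under 0.05. Which of its processing steps set the matrix values apart was not tested. The SD in the deficient group was 0.60 with marked spots kept, 0.58 in the matrix and 1.93 without them. Taking the median over all spots of a probe in place of the mean of unmarked spots, an alternative chosen after seeing the data, gave 0.945 (limma adjusted p = 0.706). By none of these did miR-10b-5p pass the adjusted threshold.

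miR-10b-3p, the minor arm of the Mir10b hairpin, was near background and was not tested. It was detected in 4 tumours, at 4.46 in wild-type replicate 5 and at 5.91, 4.84 and 4.81 in deficient replicates 1, 5 and 6. The other 9 tumours were at or near the floor. All 4 tumours with a detected 3p arm were on the high side of the miR-10b-5p gap, where the 3p arm was thus detected in 4 of 9. On the linear scaled signal, which keeps values below background, it ran from −27.8 to 22.0 in the wild-type tumours and from −47.0 in deficient replicate 2 to 59.97 in deficient replicate 1. Among the 9 tumours above the gap this signal rose with the level of miR-10b-5p (r = 0.812, exact permutation p = 0.00687, adjusted p = 0.0343 over 5 relations). Spearman's rho was 0.733 (exact permutation p = 0.0311), and r was 0.849 without the 2 tumours farthest from the median of miR-10b-5p. These 9 tumours were picked by the level of miR-10b-5p itself, so the relation holds for this subset only. Where the 3p arm was not detected among them, its scaled signal was a background reading, from −8.075 to 17.79. miR-10a-3p, the minor arm of Mir10a, was detected in none of the 13 tumours.

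**Figure D4:**
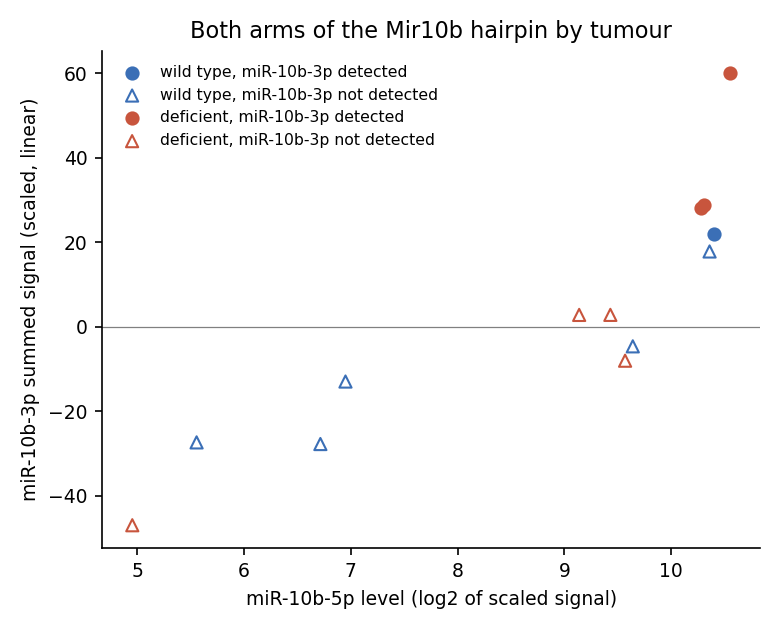
Scaled signal of miR-10b-3p on a linear scale (vertical) against the level of miR-10b-5p on the log2 scale (horizontal) in each tumour, with filled circles where miR-10b-3p was detected and open triangles where it was not. The 4 tumours with a detected 3p arm all lie above 10 in miR-10b-5p, and deficient replicate 2 is lowest on both axes.

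Whether the miR-10a and miR-10b loci rose and fell together could not be read over all tumours, since miR-10b-5p left the tumours in separate clusters. Over all 13 tumours r was 0.704, given as a description only. Within the 9 tumours above its gap, r between the 5p levels was 0.313 (exact permutation p = 0.414, adjusted p = 0.501) and Spearman's rho was 0.367 (exact permutation p = 0.336). With slide as a block r was 0.306 (permutation p = 0.469). Processing moved the value: under 13 other settings, that block included, r above the gap ran from 0.08 to 0.589 (permutation p from 0.0981 to 0.854). The 6 deficient tumours above the gap gave r = 0.697 (exact permutation p = 0.144, adjusted p = 0.241). Wild-type replicate 2, with the second lowest miR-10a-5p level and one of the highest miR-10b-5p levels, decided the value: without it r was 0.751 over 8 tumours (exact permutation p = 0.0423). Each slide held fewer than 6 tumours above the gap, so no value within a slide is given. No relation to the unscaled 75th percentile of the array passed, with r = 0.515 for miR-10a-5p over 13 tumours (permutation p = 0.0723, adjusted p = 0.181) and 0.0878 without the 2 arrays farthest from the median. For miR-10b-5p above the gap r was −0.270 (exact permutation p = 0.501).

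Of the other miRNAs encoded in Hox clusters, 8 were on the array and 2 were tested, none of which passed. They are shown as a contrast in seed, since miR-196a and miR-196b, known as repressors of Hox genes, share a seed with each other and not with miR-10.
miR-196a-5p: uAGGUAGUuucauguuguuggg
miR-196b-5p: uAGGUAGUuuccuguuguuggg
miR-615-3p: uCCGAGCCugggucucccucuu
miR-196a-5p, from a copy between Hoxb13 and Hoxb9 and another between Hoxc10 and Hoxc9, was detected in 9 tumours (4 wild-type, 5 deficient) and ran from 4.10 to 7.15. Its difference was 0.08 (SE 0.53, limma adjusted p = 0.986). miR-615-3p, within Hoxc5, was detected in 12 tumours and ran from 4.18 to 5.46, with a difference of 0.11 (SE 0.21, limma adjusted p = 0.890). miR-196b-5p, between Hoxa9 and Hoxa10, was detected in 1 wild-type and 4 deficient tumours, reached 5.56 and was not tested. The remaining 5, miR-10a-3p, miR-196a-1-3p, miR-196a-2-3p, miR-196b-3p and miR-615-5p, were detected in none. Over 13 tumours r with miR-10a-5p was 0.72 for miR-196a-5p and −0.30 for miR-615-3p, given as descriptions. The mean of these tested Hox miRNAs followed miR-10a-5p with r = 0.651 (permutation p = 0.0160, adjusted p = 0.0586 over 20 relations), short of the threshold. It passed under 7 of the other settings and without deficient replicate 5, where r was 0.843 (permutation, adjusted p = 0.00455).

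The miR-99, miR-100 and miR-125 miRNAs belong to the same ancient superfamily as miR-10 but lie outside the Hox clusters. Examples are shown to be read against miR-10a-5p, because they have other seeds but share runs of bases with it.
miR-99a-5p: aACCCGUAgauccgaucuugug
miR-100-5p: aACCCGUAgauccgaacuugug
miR-125b-5p: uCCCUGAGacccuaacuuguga
The longest run that miR-10a-5p shared with miR-100-5p was 11 bases and with miR-99a-5p 10 bases, both from base 7 of miR-10a-5p, outside most of the seed. With miR-125b-5p the longest run was 5 bases, from base 2 of miR-10a-5p and thus within its seed. Of 11 such miRNAs 7 were tested, all detected in every tumour. None passed, 4 were higher and 3 lower in the deficient tumours, and their median difference was 0.129 against 0.0413 over all tested. miR-125b-5p differed by −0.12 (SE 0.17, limma adjusted p = 0.805) and ran only from 11.57 to 12.41, and miR-99a-5p differed by −0.10 (SE 0.25, limma adjusted p = 0.921) and ran from 9.23 to 10.94. The relation of their mean did not pass with miR-10a-5p (r = 0.163, permutation p = 0.595, adjusted p = 0.793) or, in the 9 tumours above the gap, with miR-10b-5p (r = 0.491, exact permutation p = 0.172, adjusted p = 0.393). Scaling decided both: with no scaling the relation to miR-10a-5p passed (r = 0.875, permutation, adjusted p = 0.0005), and with scaling to the 75th percentile over all mouse miRNAs that to miR-10b-5p did (r = 0.771, exact permutation, adjusted p = 0.0474).

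miR-10a-5p moved with miRNAs of other cell types that a tumour piece can hold. Its level was related to the mean of 6 leukocyte miRNAs (r = 0.873, permutation p = 9e-05, adjusted p = 0.0018 over 20 relations; Spearman's rho 0.907), and r was 0.818 without the 2 tumours farthest from its median. That relation was 0.933 in the wild-type and 0.918 in the deficient tumours, and 0.925 and 0.889 within slides 1 and 2. The vessel list gave r = 0.844 (permutation, adjusted p = 0.0044), with 0.964 and 0.690 within the slides. The fibroblast and stroma list gave r = 0.819 (permutation, adjusted p = 0.00527), with 0.971 and 0.595 within the slides, and fell short with normexp background correction (adjusted p = 0.164). The 5 tested miRNAs most alike to miR-10a-5p by r over 13 tumours were miR-223-3p of myeloid cells (0.94), miR-126-5p of endothelium (0.91), miR-21-5p (0.89), miR-126-3p (0.88) and miR-26a-5p (0.86), given as descriptions.

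Between the groups, none of these markers passed the test. Of the 7 leukocyte miRNAs 6 were tested and none passed, and their summed scaled signal was 2435 to 8458 in wild-type and 2203 to 5816 in deficient tumours. Among them were miR-342-3p (10.08 to 11.28) and miR-142-3p (8.18 to 11.53). Of the 6 vessel miRNAs 4 were tested and none passed, with sums of 1715 to 3173 and 1333 to 4899, and included miR-126-3p of endothelium (10.09 to 12.11) and miR-143-3p of smooth muscle (7.33 to 9.08). All 4 had higher means in the deficient tumours, as did 227 of all 419 tested miRNAs, with a median difference of 0.391 against 0.0413 over all tested. The 4 include both arms of miR-126 and are not separate observations. The difference of miR-145-5p was 0.70 (limma unadjusted p = 0.02265, adjusted p = 0.589), where 3.82% of all tested miRNAs had an unadjusted p under 0.05. Of the tested leukocyte miRNAs 2 were higher and 4 lower, and of the stroma ones 5 were higher and 1 lower. No tumour had a detected miR-143-5p or miR-145-3p. Of the 7 fibroblast and stroma miRNAs 6 were tested and none passed, with sums of 1966 to 4199 and 1643 to 3973, and included miR-22-3p (median 9.89) and miR-199a-3p (median 9.82). The part of these cells in the miR-10a-5p level was not tested. In the other direction, the 10 neuronal miRNAs gave r = −0.643 with miR-10a-5p, short of the threshold (permutation p = 0.0176, adjusted p = 0.0586). It passed when blocked by slide (r = −0.692, permutation, adjusted p = 0.0349) and without deficient replicate 2 (r = −0.746, permutation, adjusted p = 0.0216).

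For miR-10b-5p, no relation to the leukocyte, vessel or stroma list passed above its gap (r = 0.460, −0.0133 and 0.0832; exact permutation adjusted p = 0.421, 0.972 and 0.903). Whether its relation to these lists differs from that of miR-10a-5p was not tested. Within the 9 tumours above the gap, the 1 relation of miR-10b-5p that passed was to the mean of 4 skeletal muscle miRNAs. That mean was lower where miR-10b-5p was higher (r = −0.836, exact permutation p = 0.00135, adjusted p = 0.00672, Spearman's rho −0.817). The tumours were picked by the level of miR-10b-5p itself. The relation was not tested over all tumours, so it holds for this subset only. The muscle mean was 9.51 and 10.63 in deficient replicates 3 and 4, which had the lowest and second lowest miR-10b-5p levels of these 9 tumours, and 4.48 to 6.49 in the other 7. Without these 2 tumours, an alternative chosen after seeing the data, r was −0.841 over 7 tumours (exact permutation p = 0.00952), with Spearman's rho of −0.643 (exact permutation p = 0.139). The muscle means of those 7 tumours, 4.48 to 6.49, began near the floor of 4.10. Below the gap the muscle mean was 9.49, 5.92 and 7.24 in wild-type replicates 1, 3 and 6 and 4.64 in deficient replicate 2, so low miR-10b-5p did not come with 1 muscle level. The relation no longer passed with no scaling (adjusted p = 0.234) or with scaling by the summed miRNA signal (adjusted p = 0.13).

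**Figure D5:**
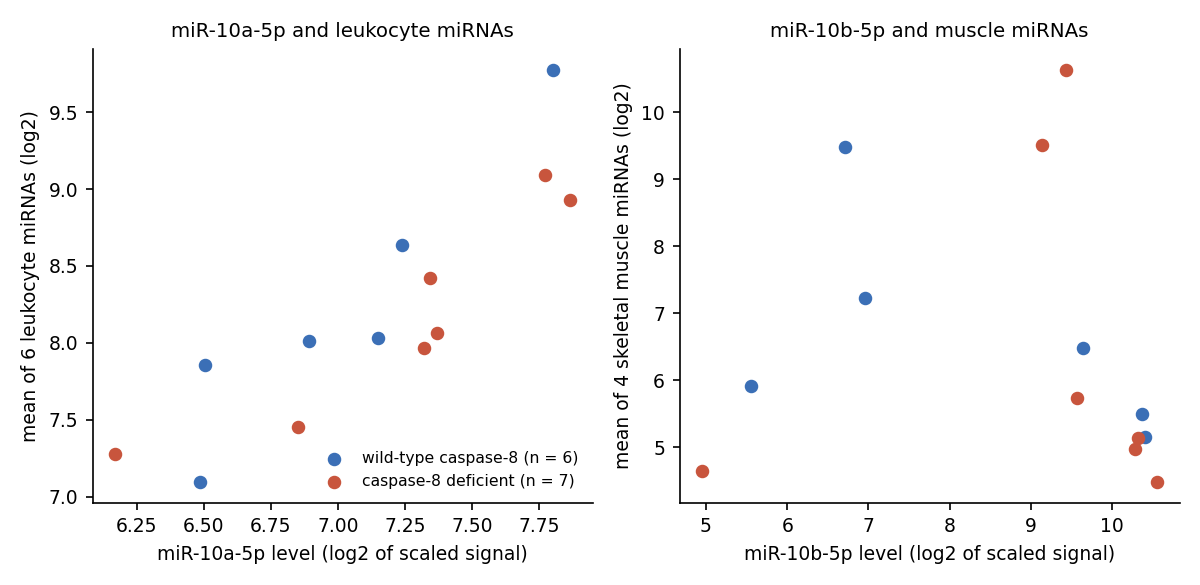
Left, mean log2 level of 6 leukocyte miRNAs against the level of miR-10a-5p in each tumour; right, mean log2 level of 4 skeletal muscle miRNAs against the level of miR-10b-5p. The left points rise together in both groups (r = 0.873), and the right points fall within the 9 tumours above 9, whereas the 4 tumours below 7 span muscle means from 4.64 to 9.49.

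The muscle miRNAs ranged widely in both groups. Of 6 listed, 4 were tested and none passed, miR-499-5p and miR-208b-3p were detected in none, and the summed scaled signal was 149.4 to 3575 in wild-type and 64.3 to 8987 in deficient tumours. Across tumours miR-133b-3p ran from 4.59 to 11.45, miR-1a-3p was detected in 12 tumours (4.10 to 12.05), and miR-206-3p, of skeletal muscle, in 10 (4.10 to 8.34). The part of muscle in the miR-10b-5p level was not tested.

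miR-10a-5p, with r = 0.704 over all 13 tumours, ranked 4 by likeness to miR-10b-5p and is not listed here because it is a member. The 5 tested miRNAs outside the members most alike to miR-10b-5p were ranked over all 13 tumours and thus by which side of the gap a tumour lay on. Their r within the 9 tumours above it, given as descriptions, was 0.64 for miR-362-3p, 0.71 for miR-500-3p, 0.13 for miR-126-3p, 0.33 for miR-130a-3p and 0.84 for miR-532-5p. miR-362, miR-500 and miR-532 come from 1 cluster on the X chromosome. The neuroendocrine list, which includes miR-7a-5p and miR-375-3p, gave r = 0.701 with miR-10b-5p above the gap and fell short of the threshold (exact permutation p = 0.0309, adjusted p = 0.0884). It passed when blocked by slide (r = 0.760, permutation, adjusted p = 0.0492) and with scaling to the 75th percentile over all mouse miRNAs (r = 0.833, exact permutation, adjusted p = 0.0234).

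Markers of the other organs around the tumours were low or showed no call. miR-122-5p, which defines hepatocytes, was detected in 1 tumour, at 4.13. miR-192-5p, of kidney and gut epithelium, was detected in 8 tumours and ran from 4.39 to 5.44, while miR-30a-5p (9.02 to 10.42) and miR-30a-3p (4.10 to 5.43), of the same list, are made by many tissues. The kidney list did not pass with either 5p form (r = 0.329, permutation adjusted p = 0.503 for miR-10a-5p, and r = 0.355, exact permutation adjusted p = 0.651 for miR-10b-5p). For miR-10a-5p it passed within slide 1 (r = 0.963 over 7 tumours, exact permutation, adjusted p = 0.00595), where slide 2 gave r = 0.127, and over all tumours with no scaling (r = 0.682, permutation, adjusted p = 0.0365). The erythroid miR-451 (12.25 to 16.32) and miR-144-3p (7.01 to 10.62) were present in every tumour. Their list gave r = 0.400 with miR-10a-5p (permutation adjusted p = 0.393) and 0.130 with miR-10b-5p above the gap (exact permutation adjusted p = 0.903). With no scaling the former passed (r = 0.653, permutation, adjusted p = 0.0451).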

How the data were processed

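Per the file headers, the deposited scanner files hold each spot's intensity on a linear scale, background-subtracted by the scanner software (Agilent Feature Extraction 10.7.3.1; 10.5.1.1 per the submitters' processing notes). The yes or no marks for detection and outliers in the deposited files are other information, not levels. The deposited series matrix holds log2 values that the authors made equal in distribution between arrays (column median 3.82), and no source used here gives its background step or probe summary. Total RNA was labelled with Cy3, per the labels' protocols.

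Of 47604 spots 2164 were controls and none was saturated. Unmarked spots were averaged per probe and probes summed per miRNA. Sums were scaled to each array's 75th percentile over the 294 miRNAs detected on all 13 arrays, floored at 17.2 and converted to log2. Precision is limited by how many arrays there are. The 419 miRNAs that at least 6 arrays detected entered limma 3.58.1 (lmFit, eBayes, R 4.3.3), two-sided, with Benjamini-Hochberg adjustment at 0.05, deficient minus wild type. The limma step was checked on simulated data. Ratios were tested by exact permutation, and relations across tumours by exact permutation under 10 tumours and 100000 permutations otherwise, two-sided, adjusted over 5 relations (members and arrays) or 20 (lists). Relations of miR-10b-5p used the 9 tumours above its gap, fixed from the levels without marked spots and kept for every alternative. Deficient replicate 2 was therefore absent from them also with marked spots kept and in the series matrix, where it was highest.

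Members and lists were chosen with earlier results of these data known. The text names all members, all Hox miRNAs on the array and the 5 miRNAs outside the members most alike to each 5p form. It also names the 2 tested miRNAs of each list with the highest mean signal, a choice that probe brightness also sets. Alternatives covered scaling, background, probe summary, marked spots, floor, filter, slide, array weights, the series matrix, replicate number and leaving out each tumour. Normexp used an offset of 50. RefSeq sequences and positions are of GRCm38.p6, while the array design names an older build. Each p-value judges a difference or a relation against the variation between these tumours. The highest correlation between 2 arrays was 0.978, and no files were identical.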

Additional observations from a re-analysis of the deposited data

Results flagged for a closer look

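In 12 groups of values tested for a sample far from the others, 4 held one, and chance flags about 1 in 20 groups. The miR-10b-5p level of deficient replicate 2, at 4.96, lay far below the other deficient tumours, the nearest of which was at 9.14. This is the tumour with the marked spot. Its log2 ratio of miR-10b-5p to miR-10a-5p, −1.22, was far below the others for the same reading of miR-10b-5p. For miR-10b-3p, wild-type replicate 5 was far above its group at 4.46, and deficient replicate 1 far above its group at 5.91. Most other tumours were at the floor of 4.10 for this arm, which makes the range of the rest narrow.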

How the results depend on the processing

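The differences of miR-10a-5p and miR-10b-5p kept their sign and stayed short of the threshold under all 33 alternatives each, and no tested miRNA passed in any of 32 (smallest limma adjusted p 0.0644). Leaving out each tumour gave 0.125 to 0.409 for miR-10a-5p, 0.363 to 1.61 for miR-10b-5p, 0.235 to 1.2 for their log ratio and 0.186 to 0.751 for their correlation, which was highest, and past 0.05 before adjustment, only without wild-type replicate 2. The log ratio reversed within slide 1, at −0.21, where 2 wild-type tumours remain, and the cause was not tested. Of 20 relations to lists 4 passed, and 4 to 5 with each tumour left out. That count was 7 with no scaling, 7 with the 75th percentile over all mouse miRNAs and 0 of 10 within slide 2, which holds 6 tumours. The cause was not tested. The leukocyte and vessel relations of miR-10a-5p passed under all 13 other settings run on all tumours, and the stroma relation under 12 (not normexp, adjusted p = 0.164). Numbers in the labels did not pair tumours (correlations of same-numbered deviations −0.22 to 0.194). With a replicate block the differences were 0.209 and 0.841 (limma adjusted p = 0.793 for both), no miRNA passed, and the log ratio differed by 0.632 (exact permutation p = 0.531). No paired analysis was run for the correlation and the list relations, because such a relation has no group contrast. For relations of miR-10b-5p, the tumours above the gap also share too few numbers. Each slide held fewer than 6 tumours above the gap, and the correlation was not computed within slides.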
